A study of Homo sapiens with 18 samples.

Results

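The genes described here encode the machinery of mitosis: the kinases that drive entry, the kinetochore that ties chromosomes to the spindle, the checkpoint that watches this attachment, the motors of the spindle, and the ubiquitin ligase that ends mitosis. They were chosen by their symbols, with no measured value in the rule, but with earlier results of these data known. Of 53 listed genes, 50 were among the 8996 genes of the deposited table, and KIF23, SPC25 and SKA1 were absent from it. They were placed in 8 subgroups by role.

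The table comes from SLAM-seq of HEK293T cells, a human embryonic kidney line. The cells received STM2457, a small-molecule inhibitor of the m6A methyltransferase METTL3, or its solvent DMSO for 3 h, and then 100 µM 4-thiouridine (s4U) for 90 or 180 min, or no s4U. The labels give all cells as wild type, and each of the 6 combinations of treatment and labelling had 3 samples, 18 in all. The labels name no step to synchronise the cells. Newly made RNA carries s4U, which is read as T-to-C conversions, and the share of converted reads gives a half-life and a synthesis rate.

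For each gene the authors deposited 1 half-life and 1 synthesis rate per treatment. No value of a single sample, no interval and no read count is in the table, so depth is unknown and no difference below could be tested against replicate error. A gene is called longer-lived or shorter-lived in STM2457 where its half-life differed by more than 1.5-fold from that in DMSO, a rule of size alone. Half-lives are given in hours, a unit inferred from the values. The half-lives stop at a ceiling of 69.3 h. METTL3 mRNA, whose protein is the target of the compound, had a half-life of 3.51 h in STM2457 and 4.00 h in DMSO.

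Mitotic genes are a textbook case of periodic expression. Their promoters are held silent early in the cell cycle by the DREAM complex at a short element called CHR, and are switched on in G2 by B-MYB and FOXM1, often beside CCAAT boxes bound by NF-Y. Their proteins are then removed by the anaphase-promoting complex, and their mRNAs decline as cells leave mitosis. The modification m6A, which METTL3 places mostly in long exons away from exon junctions, can shorten the life of an mRNA.

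The 50 genes were more often shorter-lived than longer-lived in STM2457. This was less marked in 123 other measured genes of mitosis described below, with 27.6% shorter-lived and 19.5% longer-lived. Of the 50 genes, 23 were shorter-lived (46%), against 24.9% of all genes in the table, and 6 were longer-lived (12%), against 28.5% of all genes. The other 21 stayed within 1.5-fold. The longer-lived share of all genes includes genes set at the ceiling in STM2457, which hold 980 of the 8996 genes but 2 of the 50. At 2-fold 8 of the 50 genes were shorter-lived (11.3% of all genes) and 5 longer-lived (19.7% of all genes). At a looser ratio of 5 to 4, 27 were shorter-lived (36.5% of all genes) and 10 longer-lived (35.4% of all genes). The median log2 ratio of half-lives, STM2457 over DMSO, was -0.48, beside -0.01 over all genes, and 39 of the 50 ratios lay below 0 (50.2% of all genes). Median half-lives of the 50 genes were 4.35 h in STM2457 (quartiles 2.96 and 6.15 h) and 5.41 h in DMSO (quartiles 4.53 and 8.48 h). These are half-lives of a bulk sample, in which cells in G2 and mitosis were not measured apart from other cells.

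The direction was also seen at a given half-life in DMSO. Over all genes the Spearman correlation of the ratio with the DMSO half-life, which is a term of the ratio, was -0.287. Among the 24 mitotic genes with a DMSO half-life between 4.53 and 8.48 h, 13 were shorter-lived and 2 longer-lived, with a median of -0.65. Among all 2412 genes in that interval 30.5% were shorter-lived and 19.2% longer-lived, with a median of -0.25. The order of the 50 half-lives was partly kept between treatments, with a Spearman correlation of 0.605 across genes, which share libraries and are not replicates.

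**Figure D1:**
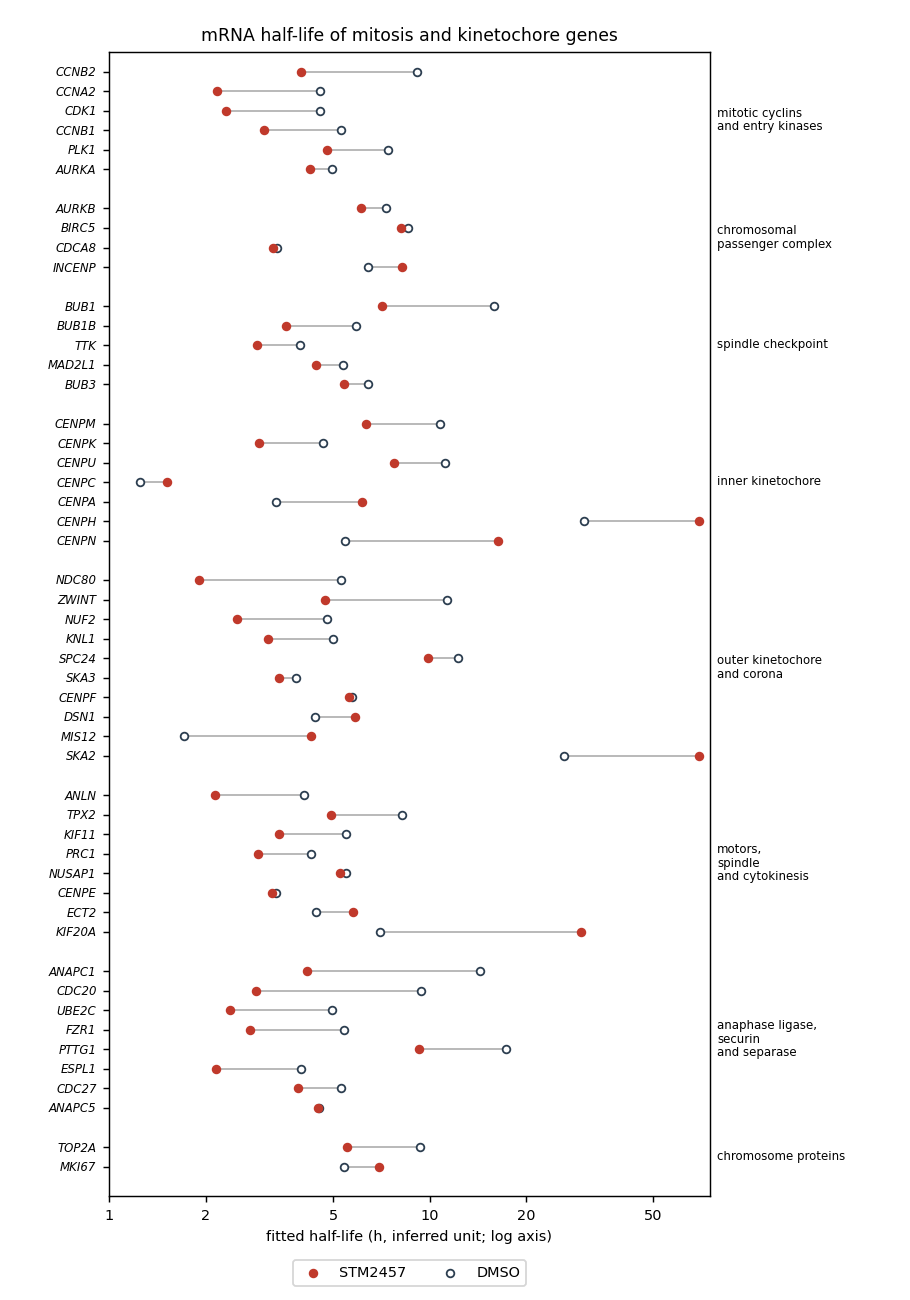
Fitted half-life of each of the 50 genes on a log axis in hours (inferred unit), grouped by role, with STM2457 as filled red points, DMSO as open points and a line joining the values of a gene. Most lines run left from DMSO to STM2457, while KIF20A, CENPN, MIS12, CENPA, CENPH and SKA2 run right past 1.5-fold. CENPH and SKA2 end at the ceiling of 69.3 h.

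Cyclins and the kinases of mitotic entry all had lower half-lives in STM2457, and 5 of these 6 genes were shorter-lived (median log2 ratio -0.89). CCNB2, a B-type cyclin that activates CDK1, had a half-life of 3.96 h in STM2457 and 9.13 h in DMSO, 2.31-fold shorter. CCNA2, the cyclin of S phase and early mitosis, had 2.17 h in STM2457 and 4.56 h in DMSO, 2.10-fold shorter. CDK1, the kinase that both cyclin types activate, was listed at 2.32 h in STM2457 and 4.54 h in DMSO.

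CCNB1, the main mitotic cyclin, had 3.03 h in STM2457 and 5.30 h in DMSO, a log2 ratio of -0.80. PLK1, a kinase of centrosome maturation and cytokinesis, was close to the size rule at 4.77 h in STM2457 and 7.42 h in DMSO (1.56-fold shorter). AURKA, a centrosomal kinase, was the exception within 1.5-fold, with 4.22 h in STM2457 and 4.96 h in DMSO. Synthesis rates were 75.2 units in STM2457 and 105 units in DMSO for CCNB2, and 176 units in STM2457 and 181 units in DMSO for CCNA2. For PLK1 they were 178 units in STM2457 and 188 units in DMSO, and for AURKA 259 units in STM2457 and 323 units in DMSO. Synthesis log2 ratios of the 6 genes ran from -0.49 (CCNB2) to -0.04 (CCNA2), so all 6 lay below 0 and none passed 1.5-fold.

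The chromosomal passenger complex, which corrects faulty attachments and guides cytokinesis, stayed within 1.5-fold in all 4 of its genes (median -0.06). AURKB, its kinase, had a half-life of 6.13 h in STM2457 and 7.33 h in DMSO. INCENP, its scaffold, was the highest of the 4 with 8.20 h in STM2457 and 6.41 h in DMSO. BIRC5, which encodes survivin, had 8.12 h in STM2457 and 8.56 h in DMSO, and CDCA8, which encodes borealin, had 3.25 h in STM2457 and 3.34 h in DMSO. CDCA8 had the shortest half-life of the 4 in both treatments. Synthesis was lower in STM2457 for each of the 4, from -0.54 in CDCA8 and in INCENP to -0.10 in BIRC5 on the log2 scale, all within 1.5-fold. CDCA8 had 170.4 units in STM2457 and 248 units in DMSO, and INCENP had 41.7 units in STM2457 and 60.6 units in DMSO. AURKB had 362 units in STM2457 and 405 units in DMSO, and BIRC5 had 433 units in STM2457 and 465 units in DMSO.

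All 5 spindle checkpoint genes had ratios below 0 (median -0.45), and 2 were shorter-lived. BUB1, a checkpoint kinase of the kinetochore, had a half-life of 7.09 h in STM2457 and 15.9 h in DMSO, 2.24-fold shorter. It was also 1 of the 2 genes whose synthesis passed 1.5-fold upward, at 54.1 units in STM2457 and 33.7 units in DMSO (log2 ratio 0.68). BUB1B, which encodes BUBR1, an inhibitor of the anaphase-promoting complex, was shorter-lived at 3.56 h in STM2457 and 5.91 h in DMSO. Values within 1.5-fold were found for TTK, the kinase MPS1 (2.90 h in STM2457 and 3.95 h in DMSO), for MAD2L1 (4.44 h in STM2457 and 5.39 h in DMSO) and for BUB3 (5.43 h in STM2457 and 6.44 h in DMSO). MAD2L1 encodes MAD2, which binds CDC20, and BUB3 the partner of BUB1 and BUBR1. Synthesis of BUB1B, MAD2L1 and BUB3 had log2 ratios of -0.09, -0.34 and -0.09, with 71.5, 104 and 508 units in STM2457 and 75.8, 131 and 542 units in DMSO.

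The inner kinetochore, the layer built on centromeric chromatin, was divided. Among its 7 genes, half-lives were longer past the size rule for 3, shorter for 2 and inside it for 2 (median 0.28). CENPN, which reads the CENP-A nucleosome, had a half-life of 16.4 h in STM2457 and 5.45 h in DMSO, 3.01-fold longer. CENPH was at the ceiling of 69.3 h in STM2457 and at 30.4 h in DMSO, so its ratio of 1.19 on the log2 scale is set by the ceiling. CENPA, the histone H3 variant that marks centromeres, had 6.16 h in STM2457 and 3.32 h in DMSO.

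CENPA and CENPN overlap other genes on the same strand that are in the table. The neighbour of CENPA, SLC35F6, had a log2 ratio of -0.99, and that of CENPN, AC092718.4, had -0.40, both opposite in sign to the member. The sources used here do not say how reads were shared between such neighbours, so both values are uncertain, as are those of PRC1, NUSAP1 and CDC27, which overlap a table gene too. Without CENPH, the other 6 genes had a median of -0.12, of the opposite sign.

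The shorter-lived genes of this layer were CENPM, with 6.33 h in STM2457 and 10.8 h in DMSO, and CENPK, with 2.93 h in STM2457 and 4.66 h in DMSO. CENPH, CENPK and CENPM encode subunits of 1 complex, and their ratios of 1.19, -0.67 and -0.77 did not share a sign. Synthesis in this layer moved less, with CENPN at 56.4 units in STM2457 and 50.8 units in DMSO, and CENPH at 14.3 units in STM2457 and 13.7 units in DMSO. CENPM had 64.6 units in STM2457 and 54.4 units in DMSO, and CENPK had 48.5 units in STM2457 and 61.9 units in DMSO. CENPU, of a neighbouring complex, had 7.77 h in STM2457 and 11.2 h in DMSO, within 1.5-fold. CENPC, the scaffold that links centromere and outer kinetochore, had the shortest half-life of all 50 genes in both treatments, 1.52 h in STM2457 and 1.251 h in DMSO.

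In the outer kinetochore, which grips microtubules, half-lives were shorter past the size rule for 4 of 10 genes, longer for 2 and inside it for 4 (median -0.24). NDC80, the microtubule-binding subunit of the complex of the same name, had a half-life of 1.90 h in STM2457 and 5.28 h in DMSO, 2.78-fold shorter. Its partner NUF2 was 1.91-fold shorter-lived, with 2.51 h in STM2457 and 4.799 h in DMSO. SPC24, at the other end of that complex, stayed within 1.5-fold at 9.91 h in STM2457 and 12.3 h in DMSO. The 3 measured subunits of the complex therefore shared a sign and differed in size.

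MIS12 and DSN1, the only listed members of the MIS12 complex, which anchors NDC80 to the inner layer, had ratios above 0. MIS12 had a half-life of 4.26 h in STM2457 and 1.71 h in DMSO, 2.49-fold longer. DSN1 had 5.85 h in STM2457 and 4.40 h in DMSO, within 1.5-fold. KNL1, the scaffold that recruits BUB1 to the kinetochore, was shorter-lived at 3.14 h in STM2457 and 5.00 h in DMSO. ZWINT, a partner of KNL1, was 2.41-fold shorter-lived, with 4.70 h in STM2457 and 11.3 h in DMSO. Synthesis rates of NDC80 were 52.8 units in STM2457 and 46.7 units in DMSO, those of ZWINT 173 units in STM2457 and 156 units in DMSO, and those of MIS12 112 units in STM2457 and 144 units in DMSO, all within 1.5-fold.

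SKA2, of a complex that holds on to shrinking microtubules, had a half-life at the ceiling in STM2457 and 26.3 h in DMSO. Its synthesis rate was the highest of the 50 relative to DMSO, 136 units in STM2457 and 76.5 units in DMSO (log2 ratio 0.83). SKA3, of the same complex, had 3.39 h in STM2457 and 3.83 h in DMSO, and CENPF, a large protein of the kinetochore corona, had 5.60 h in STM2457 and 5.71 h in DMSO.

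Among 8 measured genes of motors, spindle assembly and cytokinesis, half-lives were shorter past the size rule for 3, longer for 1 and inside it for 4 (median -0.31). KIF20A, a kinesin of the central spindle, had the largest ratio of all 50 genes. The gene lies on chromosome 5, 138178719 to 138187715 (GRCh38). Its half-life was 29.7 h in STM2457 and 6.98 h in DMSO, 4.26-fold longer, while its synthesis rate was 42.4 units in STM2457 and 48.8 units in DMSO (log2 ratio -0.20). ANLN, the actin-binding anillin of the cleavage furrow, had 2.14 h in STM2457 and 4.04 h in DMSO, 1.89-fold shorter.

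TPX2, an activator of Aurora A on spindle microtubules, had 4.92 h in STM2457 and 8.22 h in DMSO. KIF11, the kinesin that separates spindle poles, had 3.40 h in STM2457 and 5.49 h in DMSO. Both were shorter-lived, whereas PRC1, a bundler of midzone microtubules, was just within the rule at 2.91 h in STM2457 and 4.28 h in DMSO (1.47-fold shorter). NUSAP1, a microtubule-associated protein, and CENPE, a kinesin that moves chromosomes to the metaphase plate, had log2 ratios of -0.06 and -0.04. ECT2, which activates RhoA for cytokinesis, had 5.75 h in STM2457 and 4.41 h in DMSO. Synthesis of ANLN was 139 units in STM2457 and 184 units in DMSO, that of TPX2 274 units in STM2457 and 354 units in DMSO, and that of ECT2 80.5 units in STM2457 and 101 units in DMSO.

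The anaphase ligase, with securin and separase, was the subgroup with the lowest median, -0.94. Of its 8 genes 6 were shorter-lived, 2 were within 1.5-fold and none had a ratio above 0. This does not hold for the ligase as a whole: of 10 further measured ligase genes, described below, 5 had a ratio above 0 (median -0.10). ANAPC1, the largest scaffold subunit of the ligase, lies on chromosome 2, 111611639 to 111884690. Its half-life was 4.15 h in STM2457 and 14.4 h in DMSO, 3.46-fold shorter and the lowest ratio of the 50 genes. The annotation lists pseudogenes of the same name for 12 of the 50 genes: 1 each for ANAPC1, CDC20, CCNB2, BUB1, BUB3, CENPC, SKA2 and MKI67, 2 each for AURKA and CENPU, 3 for CDC27 and 4 for UBE2C. The sources used here do not say how reads shared with such copies were handled, so these values are uncertain.

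CDC20, which activates the ligase at anaphase onset and lies on chromosome 1, 43358955 to 43363203, followed at 2.87 h in STM2457 and 9.40 h in DMSO. FZR1, the activator that takes over at mitotic exit, had 2.75 h in STM2457 and 5.40 h in DMSO, 1.96-fold shorter. UBE2C, the ubiquitin-conjugating enzyme that works with the ligase, had 2.38 h in STM2457 and 4.96 h in DMSO, 2.08-fold shorter. Both activators and the conjugating enzyme were thus on the shorter-lived side.

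PTTG1, which encodes securin, and ESPL1, which encodes separase, are an inhibitor and the protease it holds back. PTTG1 had 9.25 h in STM2457 and 17.4 h in DMSO, and ESPL1 had 2.16 h in STM2457 and 3.98 h in DMSO. Both were shorter-lived by a like factor, 1.88-fold and 1.84-fold, from half-lives that differed widely. The ligase subunits CDC27 (3.87 h in STM2457 and 5.28 h in DMSO) and ANAPC5 (4.48 h in STM2457 and 4.53 h in DMSO) stayed within 1.5-fold. Synthesis rates were 17.5 units in STM2457 and 14.3 units in DMSO for ANAPC1, and 307 units in STM2457 and 272 units in DMSO for CDC20. UBE2C had 399.8 units in STM2457 and 436 units in DMSO, CDC27 had 247 units in STM2457 and 334 units in DMSO, and ANAPC5 had 434 units in STM2457 and 379 units in DMSO.

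TOP2A and MKI67, proteins of the mitotic chromosome, went opposite ways. TOP2A, the topoisomerase that untangles sister chromatids, was shorter-lived at 5.52 h in STM2457 and 9.36 h in DMSO. MKI67, the Ki-67 coat of mitotic chromosomes, had 6.94 h in STM2457 and 5.41 h in DMSO, within 1.5-fold, with synthesis of 519 units in STM2457 and 608 units in DMSO.

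**Figure D2:**
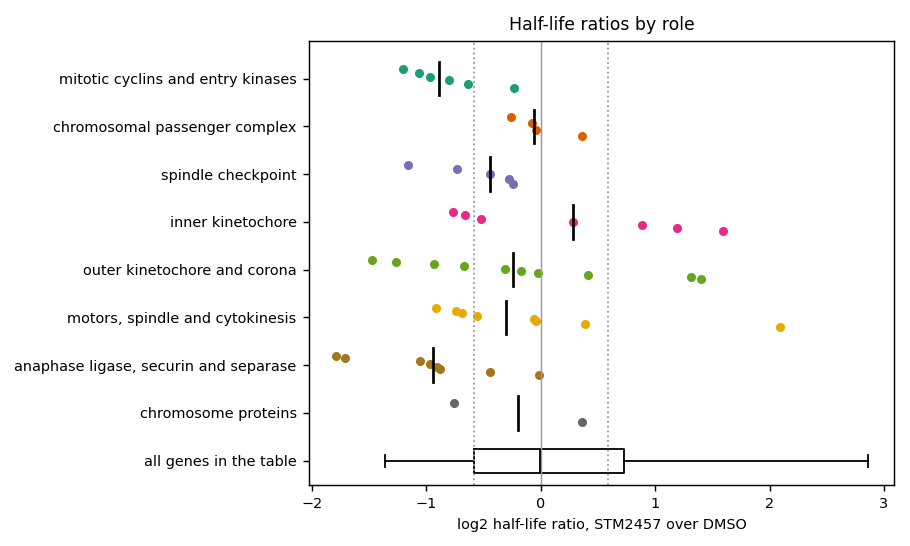
Log2 half-life ratio, STM2457 over DMSO, of each gene (points) by role, with the subgroup median as a black bar and, at the bottom, all 8996 genes as a box of quartiles with whiskers at the 5th and 95th percentiles. Dotted lines mark 1.5-fold. The listed genes of the anaphase ligase, securin and separase have none right of 0, nor have the cyclins and entry kinases. Their medians are -0.94 and -0.89, while the inner kinetochore is spread on both sides.

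Most synthesis rates of the same genes stayed inside the size rule. Of the 50 genes 47 stayed within 1.5-fold, 2 were higher (SKA2 and BUB1) and 1 was lower (TOP2A). Over all genes 12.6% were higher and 13.3% lower by the same rule. The median log2 ratio of synthesis rates was -0.14, beside -0.06 over all genes, and 36 of 50 ratios lay below 0 (54.8% of all genes). TOP2A had a synthesis rate of 764 units in STM2457 and 1531 units in DMSO, 0.499-fold. At 2-fold TOP2A was still lower and no gene was higher, beside 3.21% lower and 5.6% higher over all genes. At a ratio of 5 to 4, 16 genes were lower (28.2% of all genes) and 3 higher (22.8% of all genes). The unit of the rates is not named, so rates were compared within a gene and never between genes.

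The half-life and the synthesis rate of a gene were taken to come from 1 fit, though the tool was not named. On that assumption their product gives the mRNA level that the fit implies once synthesis and decay balance. Whether this balance was reached within the 6 h is unknown. The implied level was lower in STM2457 for 40 of the 50 genes (52.4% of all genes), with a median log2 ratio of -0.54. In a bulk sample, fewer cells in G2 and mitosis and less mRNA per such cell cannot be told apart. The lowest implied levels were TOP2A at 0.294-fold, CCNB2 at 0.309-fold, CDC20 at 0.345-fold and ANAPC1 at 0.353-fold the DMSO level. For TOP2A, CCNB2 and ANAPC1 that is below what 6 h of decay without any synthesis could reach at the fitted half-life (0.471-fold, 0.350-fold and 0.367-fold). At the other end SKA2 was implied at 4.70-fold, KIF20A at 3.69-fold, CENPN at 3.34-fold and CENPH at 2.38-fold. These 4 exceed the level that 6 h of synthesis would give with no decay at all (1.28-fold, 1.52-fold, 1.85-fold and 1.14-fold). Read as levels reached by sampling, the values of these 7 genes are therefore not possible, and the size of their ratios is uncertain. Read as levels of a later balance, they would not conflict with these limits. Which reading applies was not tested. MIS12 and CENPA stayed under their limits.

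**Figure D3:**
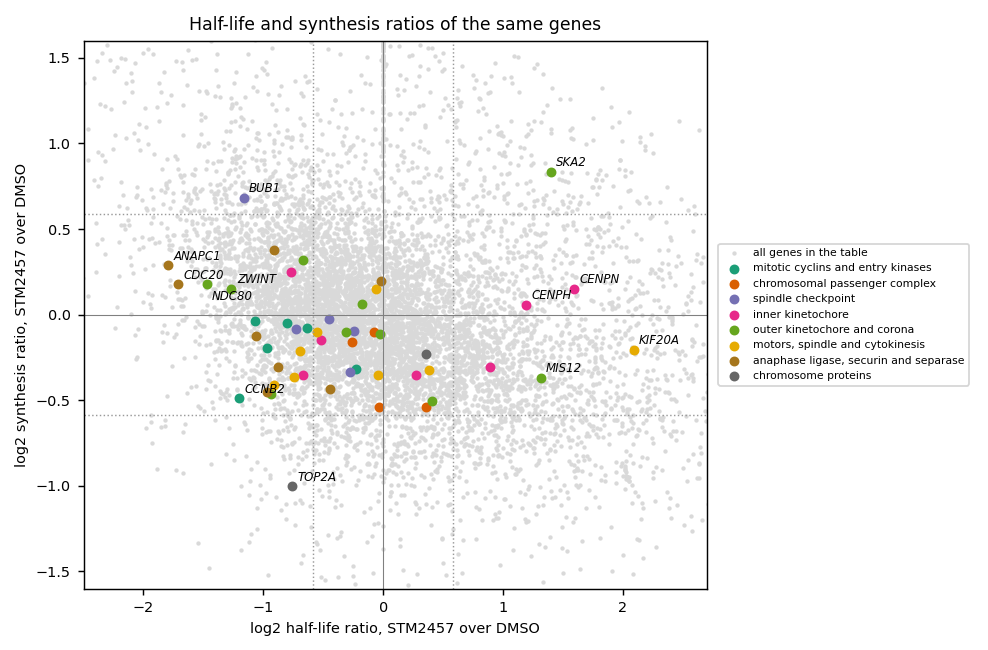
Log2 synthesis ratio against log2 half-life ratio, both STM2457 over DMSO, for the 50 genes coloured by role over all genes in grey, with dotted lines at 1.5-fold. The axes leave out 713 genes. The 50 genes spread along the half-life axis, and SKA2, BUB1 and TOP2A are those past 1.5-fold in synthesis.

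The promoters of these genes were examined for the elements named above, because synthesis is set there. RefSeq promoter windows (GRCh38.p14, 250 bases before to 50 after the start) were at hand for 41 of the 50 genes, and AURKA, BIRC5, BUB3, CENPH, CENPM, KNL1, TPX2, TTK and UBE2C had none. TTTGAA or TTTAAA, letters of the CHR element, stood on either strand in 31 of 41 genes (75.6%), against 20.7% of 7053 table genes with a window and 24% of all 35116 windows. CCAAT stood in 32 of 41 (78%), against 44.3% of table genes and 34.6% of all windows. Both were present in 23 genes (56.1%), against 8.83% of table genes and 9.27% of all windows. A match is a run of letters and not a bound site.

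The windows below are those of the gene with the lowest synthesis ratio (TOP2A), of the gene with the highest (SKA2), and of CDC20, whose half-life ratio was the lowest but for ANAPC1. They are read 5′ to 3′ along the gene, and capitals mark the CHR-like forms and CCAAT on either strand.
TOP2A: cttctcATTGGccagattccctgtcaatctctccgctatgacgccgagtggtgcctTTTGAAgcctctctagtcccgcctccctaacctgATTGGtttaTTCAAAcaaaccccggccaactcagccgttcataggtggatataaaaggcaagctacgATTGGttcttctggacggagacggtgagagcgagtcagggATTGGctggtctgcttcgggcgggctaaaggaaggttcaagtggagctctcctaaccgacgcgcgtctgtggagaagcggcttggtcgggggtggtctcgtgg
SKA2: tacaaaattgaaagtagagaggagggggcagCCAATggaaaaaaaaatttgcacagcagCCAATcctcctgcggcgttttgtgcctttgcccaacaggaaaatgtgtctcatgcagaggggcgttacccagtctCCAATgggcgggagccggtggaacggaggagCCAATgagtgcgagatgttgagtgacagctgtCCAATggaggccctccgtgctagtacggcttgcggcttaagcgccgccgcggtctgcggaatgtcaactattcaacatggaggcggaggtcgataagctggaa
CDC20: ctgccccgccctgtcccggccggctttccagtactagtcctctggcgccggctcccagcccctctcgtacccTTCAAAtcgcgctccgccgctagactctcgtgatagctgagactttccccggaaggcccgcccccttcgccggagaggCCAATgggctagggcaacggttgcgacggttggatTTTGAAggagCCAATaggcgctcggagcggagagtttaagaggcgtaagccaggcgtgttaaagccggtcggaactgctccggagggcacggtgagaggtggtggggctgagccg
The TOP2A window (chr17:40417847-40418146, minus strand) holds 2 TTTGAA matches and 4 CCAAT matches, all 4 of the latter on the reverse strand. The SKA2 window (chr17:59155137-59155436, minus strand) holds 5 CCAAT matches and no match to TTTGAA or TTTAAA. The CDC20 window (chr1:43358731-43359030, plus strand) holds 2 of each.

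Synthesis ratios were set beside the presence of a CHR-like match. The median log2 ratio was -0.21 in the 31 genes with TTTGAA or TTTAAA and -0.13 in the 10 without. For half-life the medians were -0.64 with and -0.28 without. Split by CCAAT the order was the opposite: synthesis medians were -0.18 in the 32 genes with a match and -0.35 in the 9 without, and half-life medians were -0.38 with and -0.91 without. No test was made of these differences.

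The series title concerns m6A in coding regions, so the coding sequences were read for the motif in which m6A occurs: A, G or T, then A or G, then A and C, then A, C or T (DRACH). Motifs were counted where the central A lay at least 100 nt from any exon junction. They show where m6A could lie and are no measurement of it. The 50 genes had a median of 1 per gene, beside 3 over 8527 genes with a coding model. This order depends on the distance chosen: at 50 nt or more the medians were 12.5 in the 50 genes and 10 over all genes, and at 200 nt or more both were 0. Genes with 10 or more made up 14% of the 50 and 25.4% of all genes. The coding sequence of the 50 genes is cut into pieces by a median of 9.5 junctions, beside 8 over all genes.

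The 7 genes with 10 or more such motifs were MKI67 (271), CENPF (166), KNL1 (137), CENPE (36), ESPL1 (23), CENPC (19) and MIS12 (18). MKI67, KNL1 and CENPF carry coding exons of 6845, 5001 and 3404 nt, and the coding sequence of MIS12 lies in 1 exon of 615 nt with 0 junctions. For each, the copy of GGACT, a form of the motif, that lies farthest from a junction is shown with 8 bases on either side in capitals for the motif alone.
MKI67: atttgtggGGACTccagtgga
CENPF: agagaatgGGACTcttaagga
KNL1: gataaagaGGACTtccatttg
CENPE: cttcatatGGACTttgagcaa
ESPL1: gctccccaGGACTatgaggcc
CENPC: aagcaaaaGGACTataaaaca
MIS12: agatcatgGGACTagtgattt
These windows of 21 bases come from GENCODE 29 transcripts (GRCh38). The MIS12 window is chr17:5489363-5489383 on the plus strand and lies 551 nt from the nearest junction. The KNL1 window is chr15:40623574-40623594 on the plus strand, 2057 nt from a junction, and that of MKI67 is chr10:128106063-128106083 on the minus strand, 3351 nt away.

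Across all genes, 10 or more such motifs went with longer life in STM2457, with 45.7% longer-lived, 10.5% shorter-lived and a median of 0.48. Of the 7 mitotic genes in that class 1 was longer-lived (MIS12), 2 shorter-lived (KNL1 and ESPL1) and 4 within 1.5-fold, with a median of -0.03. The 16 mitotic genes with 1 to 3 motifs had the lowest median, -0.79, with 11 shorter-lived and none longer-lived. Over all genes of that class the median was -0.22, with 31.7% shorter-lived and 20.2% longer-lived. The 19 genes with 0 motifs had a median of -0.31 (all genes -0.22). They held 7 shorter-lived genes and 4 longer-lived ones, CENPN, SKA2, CENPH and CENPA, beside 32.7% and 22.2% over all genes of the class. The 8 genes with 4 to 9 had -0.20 (all genes -0.03), with 3 shorter-lived and 1 longer-lived, beside 23.3% and 26.1% over all genes of the class. A count of 0 covers only coding motifs at this distance. In the 3′ UTR, CENPN had 15 motifs as far from a junction, SKA2 35, CENPH 4 and CENPA 17. Over the 50 genes the Spearman correlation of coding motif count and half-life ratio was 0.112, beside 0.262 over all genes, across genes that share libraries. For the 3′ UTR motif count it was 0.301 over the 50 genes and 0.0596 over all genes.

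**Figure D4:**
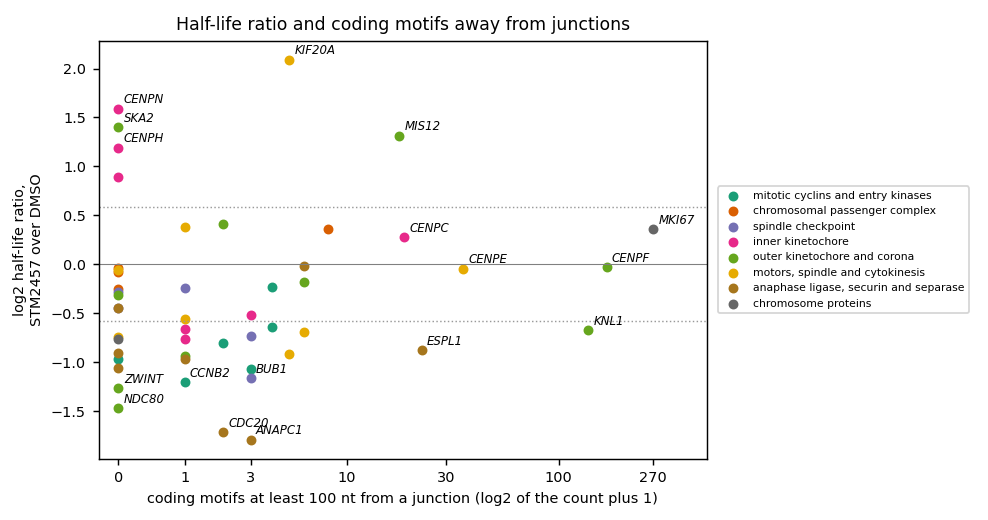
Log2 half-life ratio, STM2457 over DMSO, against the number of coding DRACH motifs at least 100 nt from a junction (log2 of the count plus 1), for the 50 genes coloured by role, with dotted lines at 1.5-fold. Of the 7 genes right of 10 motifs only MIS12 is above the upper line, and 4 longer-lived genes stand at 0 motifs.

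Other genes of mitosis, from 6 lists that share no gene with the 50, stood closer to the whole table in shorter-lived share and median. Their longer-lived share lay between those of the 50 genes and of all genes. Their 123 measured genes held 34 shorter-lived (27.6%) and 24 longer-lived ones (19.5%), and 65 inside the rule, with a median of -0.14. Over all genes 24.9% were shorter-lived and 28.5% longer-lived, and of the 50 genes 46% and 12%. The genes named below are the lowest and the highest ratio of each list among genes with both half-lives from 0.5 to 24 h. Some ratios outside these limits lie further out. Condensin and cohesin, the rings that shape and tie chromosomes, had 8 shorter-lived and 4 longer-lived of 21 genes (median -0.37). NCAPG, a condensin subunit, had a half-life of 2.74 h in STM2457 and 8.30 h in DMSO, while CDCA5, which encodes sororin and guards cohesion, had 8.22 h in STM2457 and 2.36 h in DMSO.

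Further kinetochore genes had 9 shorter-lived and 5 longer-lived of 28 (median -0.24). Within the limits the lowest was ITGB3BP, also called CENP-R, with 5.33 h in STM2457 and 16.7 h in DMSO, and the highest CENPO, with 14.3 h in STM2457 and 3.60 h in DMSO. Further spindle and cytokinesis genes had 9 shorter-lived and 5 longer-lived of 33 (median -0.17). Within the limits the lowest was KIF2A, a microtubule-depolymerising kinesin (3.41 h in STM2457, 6.66 h in DMSO), and the highest KNSTRN, a spindle protein (23.1 h in STM2457, 5.81 h in DMSO). Of 10 further subunits and partners of the anaphase ligase, 2 were shorter-lived and 3 longer-lived (median -0.10), with ANAPC4 at 2.83 h in STM2457 and 5.11 h in DMSO and ANAPC13 at 8.65 h in STM2457 and 4.23 h in DMSO.

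Regulators of entry and exit had 4 shorter-lived and 5 longer-lived of 20 (median 0.08). CDKN3, a phosphatase of CDKs, had 5.30 h in STM2457 and 18.2 h in DMSO, and LATS1, a kinase of the Hippo pathway, had 3.30 h in STM2457 and 1.26 h in DMSO. Of 11 genes for the factors that drive mitotic transcription 2 were shorter-lived and 2 longer-lived (median -0.19). RBL1, which encodes p107 of the DREAM complex, had 1.59 h in STM2457 and 3.97 h in DMSO, and E2F4, of the same complex, had 17.1 h in STM2457 and 6.87 h in DMSO.

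For earlier phases of the cell cycle, DNA replication genes had 13 shorter-lived and 11 longer-lived of 44 (median -0.27), and G1/S cyclins, kinases and inhibitors 5 shorter-lived and 4 longer-lived of 19 (median -0.13). MCM6, of the replicative helicase, had 5.66 h in STM2457 and 13.1 h in DMSO, and DBF4, the activator of the CDC7 kinase, had 4.64 h in STM2457 and 1.66 h in DMSO. CCND3, a D-type cyclin, had 3.12 h in STM2457 and 10.1 h in DMSO, and CDKN2C, an inhibitor of CDK4 and CDK6, had 3.83 h in STM2457 and 2.01 h in DMSO. No test was made of the difference between these lists and the 50 genes.

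**Figure D5:**
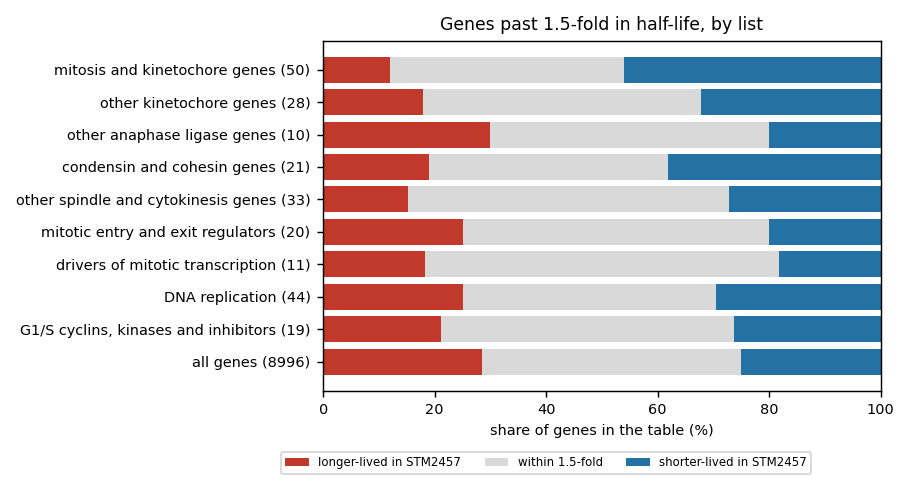
Share of genes in each list that were longer-lived (red), within 1.5-fold (grey) or shorter-lived (blue) in STM2457 relative to DMSO, with the number of measured genes in brackets. The 50 mitosis and kinetochore genes have a shorter-lived share of 46%, beside 24.9% over all genes.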

How the data were processed

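Total RNA of HEK293T cells was converted by SLAM-seq in 18 samples, per the labels' protocols. Alkylation used 5 µg of RNA, Lexogen QuantSeq forward 3′ libraries were made with 15 PCR cycles, and 24 libraries were pooled for 114 read cycles. The labels mention 1 library of lower input that cannot be matched to a sample. FastQC 0.11.9, STAR 2.7.8a and GRCh38.p12 are named in the submitters' processing notes. The tool that fitted the kinetics, its gene filter and which libraries entered each fit were not stated in the labels or headers. The authors deposited 1 half-life and 1 synthesis rate (a score with no named unit) per gene and treatment, and log2 ratios, which the values in the table give again to within 1.27e-14.

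Genes were counted past 1.5-fold, with values within 1e-06 of the largest half-life taken as at the ceiling. With 1 value per gene and treatment nothing was tested. The 50 genes, the lists and the rules were chosen with earlier results of these data known. By the rule for named genes, every member is named, with synthesis for the 2 highest and 2 lowest ratios of each subgroup, for members past 2-fold and for those at the ceiling, and of each other list the highest and lowest ratio with both half-lives from 0.5 to 24 h. Gene models were those of GENCODE 29 (8982 of 8996 identifiers matched without their version), using the transcript with the longest coding sequence; 98.8% of these begin with ATG. The counting steps were checked on a simulated table and on made sequences. The software was SciPy 1.17.1, pandas 2.3.3, Matplotlib 3.10.9 and NumPy 2.4.6 under Python 3.11.15.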

Additional observations from a re-analysis of the deposited data

How the results depend on the processing

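No paired analysis was possible because the table holds 1 value per gene and treatment and no value of a single replicate, so no replicate could be left out either. The 23 shorter-lived genes became 8 at 2-fold (11.3% of all genes). They became 13 among the 24 genes within the quartiles of DMSO half-life (30.5% of all genes there), an alternative added after seeing the data. The 6 longer-lived genes became 10 at a ratio of 5 to 4 (35.4% of all genes) and 2 of 24 within the quartiles of DMSO half-life (19.2% of all genes there). They became 3 of 47 with both half-lives from 0.5 to 24 h. Without the 11 genes that overlap another gene on the same strand they became 3 of 39. For these last settings no share of all genes is given, and the range also leaves out genes at the ceiling. The median log2 half-life ratio of -0.48 became -0.33 as a mean. By subgroup, the spindle checkpoint had -0.57 as a mean, motors, spindle and cytokinesis had -0.067 as a mean and -0.55 from 0.5 to 24 h, and the inner kinetochore had -0.12 both from 0.5 to 24 h and without genes at the ceiling. At 2-fold 0 genes had higher synthesis (5.6% of all genes), and at a ratio of 5 to 4, 16 had lower (28.2% of all genes) and 3 higher synthesis (22.8%). The median of 1 coding motif became 12.5 at 50 nt or more from a junction (all genes 10) and 0 at 200 nt or more (all genes 0). The cause of these moves was not tested. In the other 40 combinations of result and setting, counts stayed within 1.5 times and medians within 0.1. Depth is unknown, so the precision of any single half-life is too.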

Other observations

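The length of the 3′ UTR was looked at after the half-lives had been seen. Of the 25 mitotic genes with a 3′ UTR of at most 720 nt, 14 were shorter-lived and 3 longer-lived (median log2 ratio -0.67). Of the 25 with a longer one, 9 were shorter-lived and 3 longer-lived (median -0.23). NDC80 (64 nt), CDC20 (77 nt) and PTTG1 (61 nt) are shorter-lived genes with short 3′ UTRs, while MAD2L1 (4513 nt) and BUB3 (6635 nt) stayed within 1.5-fold. The genes at both ends of the ratio went the other way. ANAPC1, with the lowest ratio of the 50, has 1657 nt, and KIF20A, with the highest, has 305 nt. KNL1 (2157 nt) was shorter-lived with a long 3′ UTR, and AURKB (141 nt) stayed within 1.5-fold with a short one. The Spearman correlation of length and ratio was 0.332 over the 50 genes and 0.0531 over all genes. These lengths count the stop codon where the transcript model holds it, so the 3 nt of FZR1 hold no 3′ UTR beyond it. The lengths also depend on the transcript chosen. For SPC24 and FZR1 they were 0 and 3 nt, but 1692 and 3497 nt in the longest mature transcript. With the longest mature transcript of each gene the correlation was 0.223 over the 50 genes. Split at their median of 861.5 nt, 14 of the 25 at or below were then shorter-lived and 4 longer-lived (all genes 29.4% and 28.3%). Of the 25 above, 9 were shorter-lived and 2 longer-lived (all genes 22.4% and 28.4%). The medians were -0.67 at or below and -0.28 above. By the transcript with the longest coding sequence, 28.6% of all genes with at most 720 nt were shorter-lived and 27.4% longer-lived. Of all genes with more, 22.4% were shorter-lived and 29.1% longer-lived. No test was made.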
